A study of Mus musculus with 4 samples.

Results

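RBPJ occupancy was described at 10 mouse genes, Dusp1, Dusp2, Dusp5, Dusp6, Zfp36, Zfp36l1, Zfp36l2, Sgk1, Ier2 and Ier3, among 21755 protein-coding genes on chromosomes 1 to 19 and X. These are inducible genes whose products limit MAP kinase signaling, shorten the life of mRNAs or belong to the immediate early and stress responses. They were looked up by symbol, and the group was chosen from the measured peaks in the same libraries, with the width of RBPJ regions against gene length in view. The values that follow therefore describe these genes, and no test was made of them. The data came from alveolar macrophages (AMs), which live on the air side of the lung, of young adult WT C57BL/6J mice, collected by bronchoalveolar lavage and sorted by flow cytometry. RBPJ, the DNA-binding partner of the Notch receptors, was profiled by HT-ChIPmentation, in which immunoprecipitated chromatin is tagmented on the beads, with an antibody from Abcam. The 4 samples were 2 RBPJ libraries (replicates 1 and 2) and 2 input libraries without antibody, and the inputs have no values of their own here. Nothing in the labels says whether the libraries came from separate animals, so the difference between the libraries may be technical, and there was no other genotype or treatment.

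Immediate early genes are transcribed within minutes of a stimulus, without new protein synthesis, because their promoters already carry the factors that respond to MAP kinases. DUSP phosphatases remove the activating phosphates from MAP kinases and so close a feedback loop, whereas the zinc-finger proteins of the ZFP36 family bind AU-rich elements in mRNAs and bring in the CCR4-NOT deadenylase. In macrophages both families are known for ending cytokine production after an inflammatory stimulus. SGK1 is a kinase downstream of phosphoinositide 3-kinase and mTORC2 that is induced by glucocorticoids, and IER2 and IER3 are small immediate early proteins.

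Replicate 1 held 106228 peaks with a median width of 189 bp and replicate 2 held 47224 with a median width of 202 bp. Overlapping peaks were merged, and a merged interval with at least 1 peak of each library was taken as a consensus region. There were 25454 consensus regions, 593 bp wide at the median. Fold enrichment is the authors' value at a peak's summit over background, and the lower of the 2 libraries' values was used to rank regions. Its median over all consensus regions was 4.69. Regions were also looked up at cell type markers, which does not measure cell identity. Of 8 AM markers, 5 (62.5%) had a consensus region over a transcription start site (TSS), against 26.0% of all protein-coding genes. The highest lower fold was at Chil3, with 16.6 and 18.7 in replicates 1 and 2. Car4 and Fabp4 had regions off the TSS only, with lower folds of 4.05 and 4.72. Marco had no region within its body or 10 kb either side. None of 6 lymphocyte markers and none of 6 alveolar type II cell markers had a region over a TSS. In the wider window, 7 AM markers (87.5%), 4 lymphocyte markers (66.7%) and 1 type II marker (Abca3, 16.7%) had a region, against 48.7% of all genes.

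Sequence at these genes is shown first, beginning with promoters, because the summits of Dusp5, Dusp6, Zfp36l1 and Ier2 lay close to the TSS in both libraries and that of Ier3 in replicate 2. Promoters are the 250 bases before each RefSeq start on GRCm38.p6 (the build mm10), 5′ to 3′ on the strand of the gene. Matches were counted in all 250 bases, and the sequences are printed without bases that GENCODE gives as untranslated exon. RefSeq gave 13 promoters for 8 of the genes, and Ier2 and Zfp36l2 are named only. Capitals mark matches, on either strand, to TGGGAA (RBPJ core), TGACG (contained on both strands of the CRE palindrome TGACGTCA), TGANTCA (AP-1), TTGCNNAA (CEBP), TTCNNNGAA (STAT), GAGGAAG (PU.1), the SRF CArG box and the NF-κB site. The 12 motifs searched also included GTGGGAA, which contains the RBPJ core and has no match in the sequences shown, and CCGGAA (ETS), TATAAA and GGGCGG (SP1), which are not marked.
Dusp1 promoter, chr17:26508520-26508722, minus strand: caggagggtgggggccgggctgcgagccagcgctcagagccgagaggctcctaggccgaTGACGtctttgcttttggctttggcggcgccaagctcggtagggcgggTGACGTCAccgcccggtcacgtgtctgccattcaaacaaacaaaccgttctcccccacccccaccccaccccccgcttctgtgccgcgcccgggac
Dusp5 promoter, chr19:53528895-53529108, plus strand: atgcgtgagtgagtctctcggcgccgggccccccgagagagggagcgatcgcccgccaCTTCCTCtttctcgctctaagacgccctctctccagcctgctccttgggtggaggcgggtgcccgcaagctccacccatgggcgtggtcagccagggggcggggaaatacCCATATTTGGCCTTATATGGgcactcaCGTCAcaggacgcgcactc
Zfp36l1 promoter, chr12:80113014-80113263, minus strand: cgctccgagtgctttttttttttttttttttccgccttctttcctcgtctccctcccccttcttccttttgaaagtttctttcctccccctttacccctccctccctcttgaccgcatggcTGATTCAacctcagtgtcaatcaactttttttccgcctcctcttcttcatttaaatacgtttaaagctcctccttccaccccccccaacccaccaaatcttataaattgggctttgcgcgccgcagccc
Ier3 promoter, chr17:35821463-35821683, plus strand: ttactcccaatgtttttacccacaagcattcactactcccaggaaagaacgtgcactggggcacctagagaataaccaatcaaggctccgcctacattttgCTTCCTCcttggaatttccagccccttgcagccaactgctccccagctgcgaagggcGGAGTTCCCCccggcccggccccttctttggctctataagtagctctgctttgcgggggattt
Dusp2 promoter, chr2:127335909-127336158, plus strand: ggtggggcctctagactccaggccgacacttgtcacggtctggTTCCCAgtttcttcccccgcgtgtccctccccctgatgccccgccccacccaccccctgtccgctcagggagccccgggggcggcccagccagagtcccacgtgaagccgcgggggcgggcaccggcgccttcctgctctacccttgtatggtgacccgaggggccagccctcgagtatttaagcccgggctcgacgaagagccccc

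The Dusp1 promoter carried 3 matches to TGACG, at −191, −143 and −140 from the RefSeq start, the last pair forming the palindrome TGACGTCA. The Dusp5 promoter carried 2 adjoining CArG boxes at −82 and −72, followed by TGACG on the other strand at −55, and the summits of its TSS region lay next to or within them. A CArG box was also present before the RefSeq start of Zfp36, but these 250 bases lie inside the GENCODE gene, wholly in untranslated exon, and are not printed. With it, 2 of 13 promoters held a CArG box, against 1.47% of 32851 RefSeq promoters. TGACG was found in 3 of the 13 promoters, against 17.8% of all promoters, and GAGGAAG in 7 of 13, against 10.6%. The 13 promoters include 6 of Sgk1, which are alternative starts of a single gene and supplied most of the promoters with GAGGAAG. The other genes with it were Dusp5, Dusp6 and Ier3. Some of the Sgk1 promoters with GAGGAAG lay outside any consensus region. The Zfp36l1 promoter held an AP-1 match at −129 and the Ier3 promoter an NF-κB match at −92. The RBPJ core occurred in 1 of the 13 promoters, at −207 in Dusp2, the member without a consensus region, against 21.6% of all promoters. A match is a description of the letters and not a measured site.

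Summits away from the starts are shown as 101 bases centered on the summit in the library where fold was higher, on the strand of the gene. Zfp36 was picked because its wide region had the highest fold of the group in both libraries. The summit shown is that of replicate 1, 6707 bp from that of replicate 2. Dusp6 was picked for the highest replicate 1 fold of a region outside a gene body, which was lower in replicate 2. Dusp1 and Sgk1 were picked for distal summits with repeated or RBPJ core letters.
Zfp36 summit of the wide region, chr7:28382884-28382984, minus strand: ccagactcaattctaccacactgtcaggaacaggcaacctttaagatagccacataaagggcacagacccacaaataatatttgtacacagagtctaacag
Dusp6 downstream summit, chr10:99268893-99268993, plus strand: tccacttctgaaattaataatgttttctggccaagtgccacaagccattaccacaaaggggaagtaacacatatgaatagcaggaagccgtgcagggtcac
Dusp1 distal summit, chr17:26538201-26538301, minus strand: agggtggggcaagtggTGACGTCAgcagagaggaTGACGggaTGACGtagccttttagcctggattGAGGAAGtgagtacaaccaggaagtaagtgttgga
Dusp1 upstream summit, chr17:26514794-26514894, minus strand: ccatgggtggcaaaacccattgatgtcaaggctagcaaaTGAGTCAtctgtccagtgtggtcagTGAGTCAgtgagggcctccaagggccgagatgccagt
Sgk1 distal summit, chr10:21889588-21889688, plus strand: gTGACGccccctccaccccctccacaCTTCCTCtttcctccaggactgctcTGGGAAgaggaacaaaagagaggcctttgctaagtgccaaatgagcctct

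At the distal Dusp1 summit, 4 matches to TGACG, including another TGACGTCA palindrome, lay within 50 bases of the summit, and GAGGAAG followed. The upstream Dusp1 summit had 2 AP-1 matches, at −11 and 14 from the summit. The Sgk1 summit, in an intron of the long transcripts, had TGGGAA starting 1 base after it. No letters of the set were found in the 101 bases at the Zfp36 and Dusp6 summits. Within 100 bp of the summits of all 51 consensus regions in the windows of the 10 genes, AP-1 letters were found at 9 (17.6%), against 9.30% of all consensus regions. The RBPJ core was found at 10 of 51 (19.6%), against 18.8%. It was found at none of the 9 summits of regions over a TSS of these genes, against 17.6% of 5224 consensus regions over a protein-coding TSS. Only the bases around each summit were searched, and the rest of these regions was not. The summit can lie away from the TSS, as at Dusp1 (3565 bp) and Zfp36 (−2681 bp). With 9 summits, nothing is read from this count. The 51 summits share loci, since 8 belong to Dusp1 and 10 to Dusp5.

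Consensus regions were present in the gene body or within 10 kb at 9 of the 10 genes, the exception being Dusp2. The same was true of 48.7% of all protein-coding genes and of 40.1% of those of at most 15 kb. The same 9 genes had a region over a TSS, against 26.0% of all genes and 21.5% of those of at most 15 kb. At 3 of the 10, Zfp36, Ier2 and Ier3, a region overlapping the gene was at least as wide as the gene itself. The same held for 0.538% of all genes and 1.17% of those of at most 15 kb. The group was chosen on such regions, so nothing is read from these shares. The windows held 51 consensus regions, of which 30 overlapped a gene body and 9 a TSS. By summit, 49 of them lay nearest to the TSS of the gene in question, counting protein-coding TSSs only. Some of the 51 regions lay over the TSS of a noncoding gene. The widths of the 51 regions ran from 225 to 12766 bp with a median of 949 bp, and the median lower fold was 5.70.

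**Figure D1:**
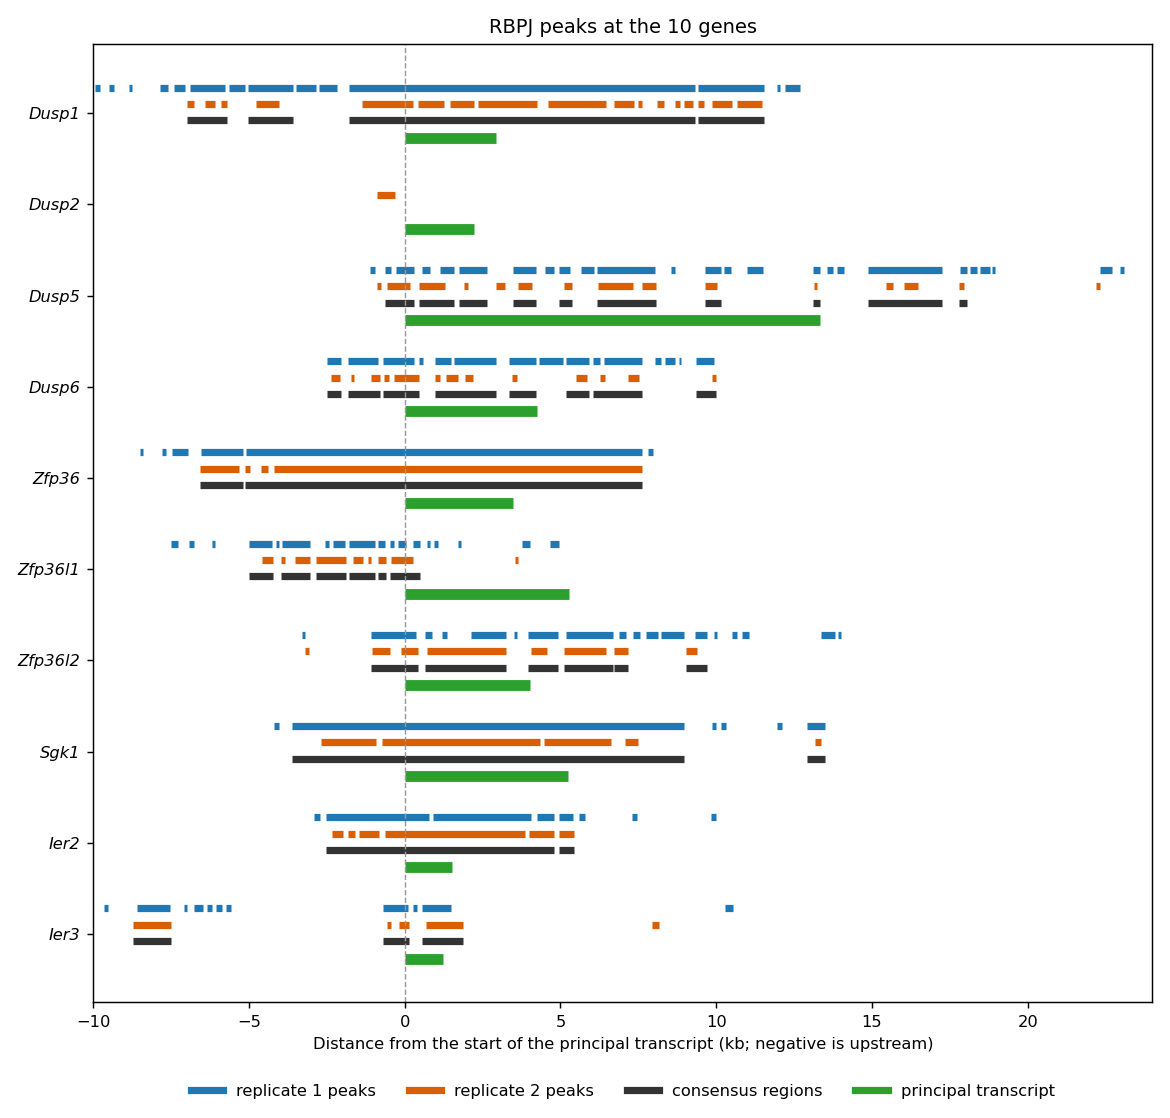
Positions of RBPJ peaks of replicate 1 (blue), replicate 2 (orange) and consensus regions (dark grey) at the 10 genes, with the principal transcript in green, in kb from its start and drawn from 10 kb upstream to 24 kb downstream. Long consensus regions span the whole transcript at Dusp1, Zfp36, Sgk1 and Ier2, many short ones lie along Dusp5 and Dusp6, and Dusp2 has a single replicate 2 peak.

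Among the nuclear inducible phosphatases, Dusp1 (MKP-1), which acts mainly on p38 and JNK, had the most peaks, in the longest window. Its GENCODE span (ENSMUSG00000024190.7, chr17:26505590-26562128, minus strand) is 56539 bp because of a long transcript, and its principal transcript is 2930 bp. The window of 76539 bp, against 33323 bp at Dusp5, held 32 peaks of replicate 1 and 27 of replicate 2, which made 8 consensus regions. These counts were not scaled to window length. The region over the principal TSS ran from −1771 to 9314 bp of it, where negative is upstream, 11086 bp in all, and 7 of the 25454 regions were wider. Its folds were 12.5 in replicate 1 and 11.4 in replicate 2, with −log10 q of 63.3 and 24.6. The same stretch was 1 peak in replicate 1 and 10 peaks in replicate 2, which covered 75.6% of it. The region was 0.196 of the GENCODE span and 3.78 times the principal transcript, which it covered whole. Both summits lay past the end of the gene, at 3565 bp from the TSS in replicate 1 and, just inside the lincRNA gene AC122252.2, at 5370 bp in replicate 2. A second wide region of 6030 bp, with folds of 14.7 and 9.37, had its summits about 24 kb upstream, at −24161 and −24261 bp. The distal region whose sequence is printed above was strong in replicate 1 (fold 16.0) and lower in replicate 2 (5.69). Its nearest protein-coding TSS was that of Ergic1, 23238 bp from the summit, and it lay over the TSS of a noncoding gene, AC122252.1.

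Dusp2 (PAC-1), a nuclear phosphatase known from activated immune cells, differed from the other 9 genes in having no consensus region. The gene (ENSMUSG00000027368.6, chr2:127336159-127338376, plus strand, 2218 bp) had no peak of replicate 1 in its window and 1 peak of replicate 2. That peak was 567 bp wide, with its summit at −820 bp from the TSS, a fold of 6.18 and a −log10 q of 8.47, and it ended 309 bp before the gene. The nearest replicate 1 peak was 61655 bp away, and the nearest consensus region 65919 bp away, closest to Stard7, with folds of 5.07 and 6.36. The peak upstream of Dusp2 thus rests on replicate 2 alone.

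Dusp5, a nuclear phosphatase of ERK, had the highest number of consensus regions of the group. In its window (ENSMUSG00000034765.6, chr19:53529109-53542431, plus strand, 13323 bp) 25 peaks of replicate 1 and 15 of replicate 2 made 10 regions, and 98.3% of protein-coding genes had fewer. The strongest, of 938 bp, lay over the TSS with folds of 12.7 and 14.1, and its summits at −39 and −47 bp were 8 bp apart. Another 7 regions lay along the gene, 6 of them with both summits in the intron sequence and 1 over the last exon, with lower folds between 2.85 and 8.25. The widest, 1878 bp or 0.141 of the gene, had folds of 10.7 and 8.25, and consensus regions covered 45.6% of the gene. The TSS region overlapped an antisense gene, AC137853.2, and peak positions carry no strand.

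Dusp6 (MKP-3), the cytoplasmic phosphatase of ERK and a standard readout of ERK activity, had 8 consensus regions from 15 and 13 peaks. Over the TSS (ENSMUSG00000019960.8, chr10:99263231-99267489, plus strand, 4259 bp) a region of 1139 bp had folds of 15.5 and 9.04, with summits at −69 and 31 bp. The widest region in the gene was 1959 bp, 0.46 of its length, and the regions together covered 77.4% of the gene. Peaks of replicate 1 covered 74.6% of the gene and those of replicate 2 covered 33.1%. Past the gene, a region of 760 bp at 5712 bp from the TSS had folds of 20.3 and 7.36 in replicates 1 and 2, the former being the highest fold of replicate 1 outside the wide regions of Zfp36 and Sgk1. Its summits were 13 bp apart, and it lay within 2 overlapping lincRNA genes, Gm34921 and Gm48089, so the region is not Dusp6's alone. Dusp6 was higher in replicate 1 than in replicate 2 at both regions, by over 1.5 times.

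In the ZFP36 family, the gene of tristetraprolin itself had the strongest region of all 10. Zfp36 (ENSMUSG00000044786.6, chr7:28376784-28380253, minus strand, 3470 bp) lay whole inside a region of 12766 bp, which ran from −5135 to 7630 bp of the TSS. It was 3.68 times the gene, and 3 consensus regions were wider. Folds were 27.4 in replicate 1 and 20.4 in replicate 2, with −log10 q of 118 and 61.1, and 99.9% of protein-coding genes had a lower value at their strongest region or no region. Replicate 1 called it as 1 peak and replicate 2 as 3, and 95.2% of the region was covered in both. The highest points did not coincide, because the summit lay at −2681 bp from the TSS in replicate 1 and at 4026 bp, past the gene, in replicate 2. The antisense gene Gm44710 starts within the region. A second region of 1376 bp lay next to it upstream, with folds of 15.5 and 8.37, and reached into Med29.

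Zfp36l1, which is known for its part in B and T cell development, had the opposite layout, with all 6 regions at the TSS or upstream. The gene (ENSMUSG00000021127.7, chr12:80107754-80113013, minus strand, 5260 bp) had 18 peaks of replicate 1 and 9 of replicate 2. Its TSS region of 980 bp had folds of 16.0 and 7.36, with summits at −81 and −135 bp, and replicate 1 was over 1.5 times higher. Regions covered 9.54% of the gene and none of the 10 kb downstream, against 41.9% of the 10 kb upstream. The lincRNA Gm26669 shares most of the gene on the other strand.

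Zfp36l2, a close relative of Zfp36l1, had its strongest region inside the gene rather than over the TSS. In its window (ENSMUSG00000045817.8, chr17:84183931-84187947, minus strand, 4017 bp) 18 and 8 peaks made 6 regions. A region of 2593 bp, 0.646 of the gene, had folds of 14.97 and 13.7, and its summits at 3091 and 3063 bp lay in an untranslated exon. The TSS region of 1509 bp had folds of 13.2 and 8.70, and its summits were 938 bp apart, upstream in replicate 1 and in the untranslated part of an exon in replicate 2. The regions covered 76.7% of the gene and 35.9% of the 10 kb downstream. An antisense gene, AC132455.1, starts in the wider region.

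Sgk1 combined a very wide region with distant ones. The GENCODE gene (ENSMUSG00000019970.15, chr10:21882184-21999903, plus strand) spans 117720 bp with 5 TSSs, and the principal transcript is 5238 bp. A region of 12585 bp ran from −3623 to 8961 bp of the principal TSS, covering all of the principal transcript, and 4 consensus regions were wider. Its folds were 21.8 and 15.1, with summits inside the gene at 575 and 341 bp. The width was 0.107 of the GENCODE span and 2.40 times the principal transcript. It was 1 peak in replicate 1 and 4 in replicate 2, which covered 74.5% of it. Another 4 regions lay in introns of the long transcripts, between −105293 and −17332 bp of the principal TSS. Of these, the most distant had folds of 5.89 and 10.7, higher in replicate 2, whereas the other 3 had 9.25 to 12.4 in replicate 1 and 4.29 to 4.59 in replicate 2.

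Both immediate early response genes are short and were largely covered. Ier2 (ENSMUSG00000053560.4, chr8:84661331-84662852, minus strand, 1522 bp) lay whole in a region of 7323 bp, 4.81 times its length and the highest ratio of the group, although 36 regions were wider. The region joined 3 peaks of replicate 1, at most 3294 bp wide, and 5 of replicate 2, at most 4500 bp wide. Its upstream end lay over the TSS of a lincRNA gene, Gm26664. In each library alone the ratio at Ier2 was below that at Zfp36. The folds of 18.8 and 17.4 at Ier2 were close, and the summits at −30 and −28 bp were 2 bp apart. Ier3 (ENSMUSG00000003541.6, chr17:35821684-35822923, plus strand, 1240 bp), the gene of a regulator of cell survival, had 3 regions and lower folds. The TSS region of 835 bp had folds of 8.12 and 9.04. The region that passed the gene's length did so narrowly, at 1308 bp or 1.05 times, with folds of 12.4 and 7.03, and it covered the TSS of the next gene, Flot1, to which it was nearest. That region began 567 bp after the Ier3 TSS and so covered only a part of Ier3. Both of its summits, at 1358 and 1414 bp, lay downstream of Ier3. The next ratio below 1 was 0.646, at Zfp36l2. The remaining region, of 1192 bp, lay about 8 kb upstream with folds of 8.63 and 5.94.

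**Figure D2:**
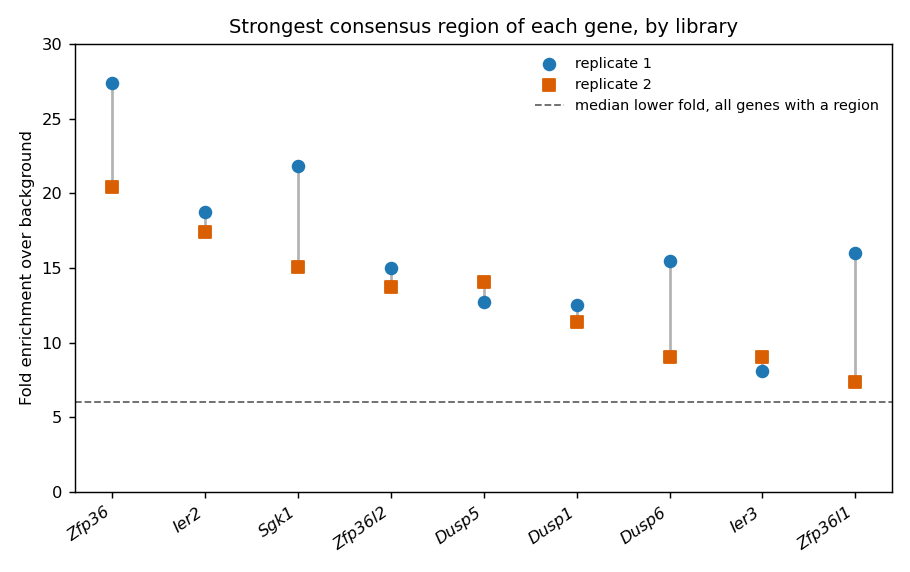
Fold enrichment at the strongest consensus region of the 9 genes with a region, for replicate 1 (blue circles) and replicate 2 (orange squares), ordered by the lower value. The lower values run from 7.36 at Zfp36l1 to 20.4 at Zfp36, above the dashed median of 6.02 over all genes with a region. The libraries are farthest apart at the Zfp36l1 region drawn, which lies over the TSS. An upstream Zfp36l1 region ties with it at the lower value of 7.36 and has 11.4 in replicate 1.

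The order of the 9 genes by the lower fold at the strongest region was Zfp36 (20.4), Ier2 (17.4), Sgk1 (15.1), Zfp36l2 (13.7), Dusp5 (12.7), Dusp1 (11.4), Dusp6 (9.04), Ier3 (8.12) and Zfp36l1 (7.36). In replicate 1 the highest at these regions were instead Zfp36 (27.4), Sgk1 (21.8) and Ier2 (18.8). Taken as ranges, the values of the libraries overlapped or touched between neighbours in this order, except between Zfp36 and Ier2 (18.8 at most), between Sgk1 and Zfp36l2 (14.97 at most) and between Dusp5 and Dusp1 (12.5 at most). The gaps in the last 2 pairs were small, and with 2 libraries no finer order was read. The median lower fold was 12.7 in the 9 genes and 6.02 over all protein-coding genes with a region. Fold was higher in replicate 1 at 37 of the 51 regions (72.5%), which was the share over all consensus regions as well (72.2%). Summits of the libraries lay within 100 bp of each other at 25 of 51 (49.0%), against 52.3% of all consensus regions.

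**Figure D3:**
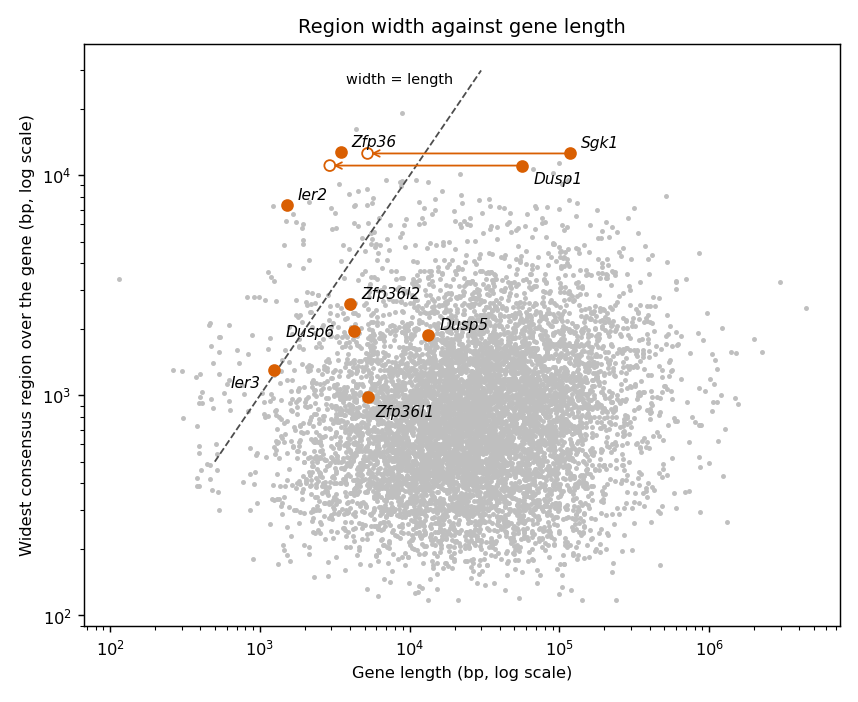
Width of the widest consensus region over a gene against gene length, both in bp on log scales, for 8125 protein-coding genes with a region in the body (grey) and 9 of the 10 genes (orange), with a dashed line at equal width and length. Zfp36, Ier2 and Ier3 lie on or above the line, and arrows move Dusp1 and Sgk1 from the GENCODE span to the principal transcript (open circles), where they pass it too.

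Region width set against gene length separated Zfp36 and Ier2 from the rest. The ratio was 4.81 at Ier2, 3.68 at Zfp36, 1.05 at Ier3, 0.646 at Zfp36l2, 0.46 at Dusp6, 0.196 at Dusp1, 0.186 at Zfp36l1, 0.141 at Dusp5 and 0.107 at Sgk1. The median of the 9 was 0.46, against 0.0302 over the 8125 genes with a region in the body. Over the 2697 of these of at most 15 kb it was 0.100. The ratio falls with gene length, and the median length was 4138 bp in the 10 genes, against 17414 bp over all protein-coding genes. Dusp1 and Sgk1 have long annotated spans. Against the principal transcript Dusp1 rose to 3.78 and Sgk1 to 2.40. By this measure 5 of 10 genes had a region at least as wide, against 0.552% of all genes and 1.17% of those of at most 15 kb. In single libraries the ratio stayed above 1 at Zfp36 (3.66 and 3.41) and Ier2 (2.16 and 2.96), so Zfp36 ranked above Ier2 in each. It fell to 0.75 and 0.971 at Ier3, where neither library had a peak as wide as the gene, and the wider region came from merging their overlapping peaks. Within the region over the principal TSS of Dusp1 the widest peak was 11086 bp in replicate 1 and 1877 bp in replicate 2, and within that of Sgk1 it was 12585 and 5058 bp, so both of these widths rest on replicate 1.

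**Figure D4:**
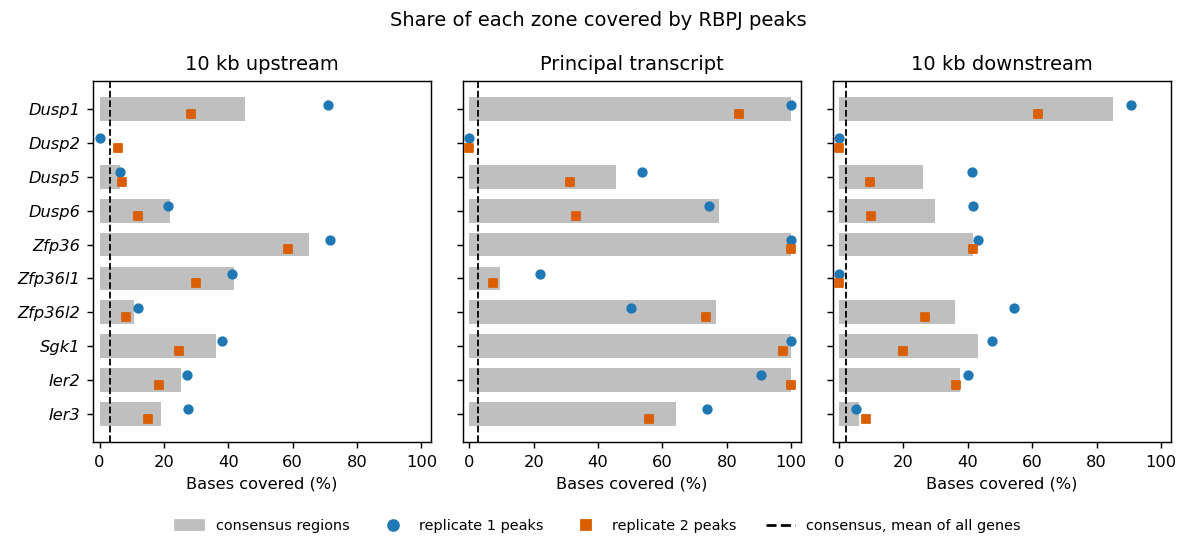
Share of bases covered by consensus regions (grey bars) and by the peaks of replicate 1 (blue circles) and replicate 2 (orange squares) in the 10 kb upstream, the principal transcript and the 10 kb downstream of the 10 genes, with a dashed line at the mean consensus coverage of all protein-coding genes. Coverage of the transcript runs from 0 at Dusp2 to 100% at Dusp1, Zfp36, Sgk1 and Ier2, and Dusp1 is covered beyond its end as well.

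Coverage was not limited to promoters. Consensus regions covered on average 67.4% of the principal transcript of the 10 genes, against 2.64% over all protein-coding genes, 27.1% of the 10 kb upstream, against 3.39%, and 30.6% of the 10 kb downstream, against 2.09%. These backgrounds are not limited to short genes. The 10 genes are shorter at the median and were chosen with such regions in view, so nothing is read from the differences. The principal transcript was covered whole at Dusp1, Zfp36, Sgk1 and Ier2, by 64.4% to 77.5% at Ier3, Zfp36l2 and Dusp6, by 45.6% at Dusp5 and by 9.54% at Zfp36l1. Single libraries differed, with 74.6% in replicate 1 and 33.1% in replicate 2 at Dusp6, and 50.1% and 73.4% at Zfp36l2. Downstream sequence was covered by 85.0% at Dusp1, 43.2% at Sgk1 and 41.6% at Zfp36, but by 6.35% at Ier3. Replicate 1 covered more of the downstream 10 kb than replicate 2 at every gene with any coverage there except Ier3. Dusp5 had 41.4% in replicate 1 and 9.49% in replicate 2, and Dusp6 had 41.7% and 9.98%.

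The peaks of replicate 1 were more numerous here, as in the whole list. Of 159 peaks of replicate 1 in the windows, 64 (40.3%) were part of a consensus region, against 26.0% of all its peaks. Of 99 peaks of replicate 2, 89 (89.9%) were, against 66.3% of all.

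**Figure D5:**
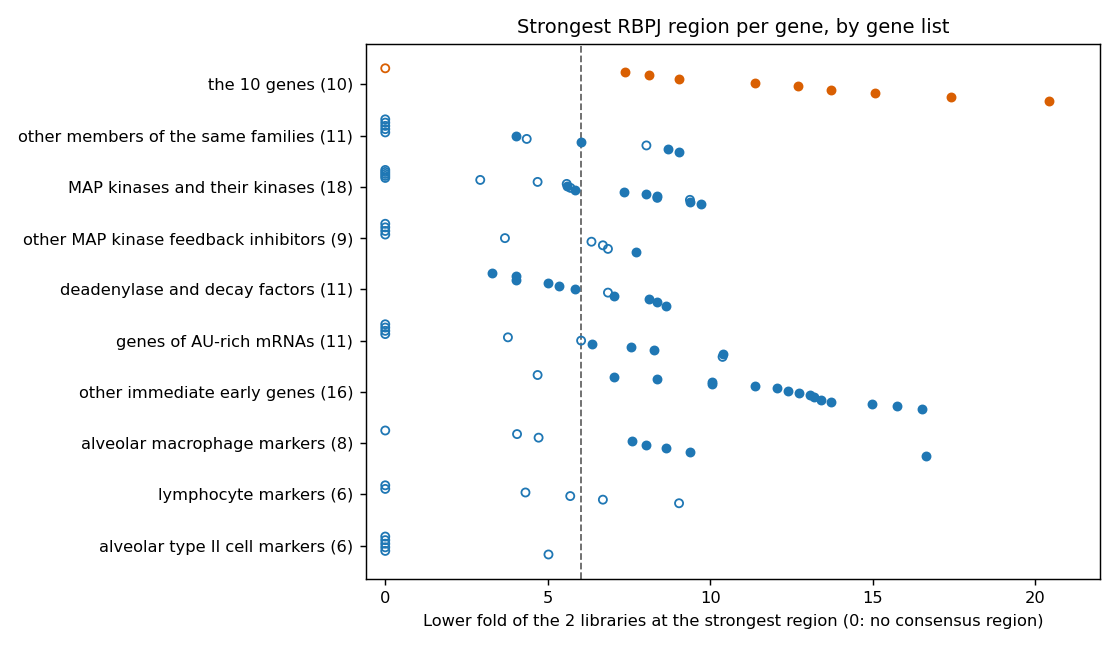
Lower fold of the libraries at the strongest consensus region for each gene of 10 lists, with the list size in brackets, where filled circles have a region over a TSS and open circles do not, and genes at 0 have no consensus region in the window. The other immediate early genes reach folds like those of the 10 genes, up to 16.5 at Jun, and relatives of the same families stay at or below 9.04.

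Relatives in the same families came first among the other lists. Of 11 other DUSP, ZFP36, SGK and IER genes, 6 (54.5%) had a region in the window, near the 48.7% of all protein-coding genes. A region over a TSS was present at 4 (36.4%, Dusp4, Dusp10, Dusp16 and Ier5), against 26.0% of all genes, and none had a region as wide as the gene. Ier5, another immediate early gene, had the highest lower fold of these (11.2 and 9.04 in replicates 1 and 2), followed by Dusp16, a JNK phosphatase (11.4 and 8.70), and Sgk3 (10.4 and 8.03). Dusp8, Dusp9, Zfp36l3, Sgk2 and Ier5l had no region. The median lower fold in those with a region was 7.03, against 12.7 in the 9 genes with a region here.

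The kinases that DUSPs act on, with the kinases around them, came next. Of 18 MAP kinases and kinases upstream or downstream of them, 13 (72.2%) had a region, against 48.7% of all genes. A region over a TSS was present at 7 (38.9%), against 26.0%, and none had a region as wide as the gene. Mapkapk2, which phosphorylates tristetraprolin, had folds of 10.4 and 9.71, Mapk14 (p38α) had 17.3 and 9.37, and Map2k2 (MEK2) had 13.95 and 9.37 without a region over its TSS. Mapk7, Mapk8, Mapk10, Mapk13 and Map2k6 had none in the window. Of 9 other feedback inhibitors, 5 (55.6%) had a region, near the share of all genes, and 1 (11.1%), Spred2 (8.63 and 7.70), had it over a TSS. Dok2 (6.85 and 7.03) and Spred3 (9.89 and 6.69) followed, and Spry2, Spry4, Errfi1 and Dok1 had no region.

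Downstream of the ZFP36 proteins, all 11 deadenylase and decay factors had a region, against 48.7% of all genes. At 10 of them (90.9%) it lay over a TSS, against 26.0%, and the median lower fold was 5.84. The highest were the exonuclease gene Xrn1 (8.63 and 11.0), the CCR4-NOT scaffold gene Cnot1 (9.89 and 8.37) and the decapping gene Dcp1a (8.12 and 9.04). Of 11 genes whose AU-rich mRNAs the family is known to bind, 7 (63.6%) had a region and 4 (36.4%), Tnf, Il1b, Cxcl2 and Ccl2, had it over a TSS. The chemokine gene Cxcl2 had the 1 region of this list that was wider than its gene, 2942 bp or 1.42 times. Its strongest region was a different one of 3320 bp outside the gene body, with folds of 16.0 and 10.4. That region was counted for the neighbouring gene Cxcl1 as well, also outside its body. Il1b had 12.2 and 8.25, and Il10, Csf2, Ptgs2 and Vegfa had no region.

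Other immediate early genes formed the last list. All 16 had a region, against 48.7% of all genes, and 15 had it over a TSS, against 26.0%, with Egr3 as the exception. A region at least as wide as the gene was present at 7 (Fos, Jun, Junb, Jund, Egr1, Btg2 and Klf6), against 0.538% of all genes. Their median lower fold was 12.6, and their median region over a TSS was 6051 bp, against 1509 bp in the 9 genes. Jun had folds of 22.1 and 16.5, Fosl2 had 16.0 and 15.7 and Egr1 had 14.97 and 14.96. The lists were drawn up with earlier results of these data known, and no difference between lists was tested.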

How the data were processed

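RBPJ HT-ChIPmentation libraries (2) and inputs (2) came from sorted AMs of WT mice. Per the labels and the methods of the study, the authors used bcl2fastq (2.20.0.422), CASAVA, cutadapt, Bowtie2 (mm10), SAMtools and MACS3, which called peaks per library, with input as control and a q cutoff of 0.05. Deposited columns give peak positions and summits, the fold enrichment over background as the authors' ratio, −log10 p and −log10 q of each peak, and a display score that was not used. The files carry no read depth, and the 2 libraries limit the precision of every value.

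Peaks of both lists that overlapped by at least 1 bp were merged into consensus regions, and the merging was tested on simulated data. Genes and TSSs came from the basic transcripts of GENCODE M21, the window was the gene body and 10 kb either side, and the principal transcript was the one GENCODE marks with an APPRIS principal tag. A region's fold was the highest of its peaks in a library. Sequence was read from GRCm38 and the RefSeq promoters. Python 3.11.15, numpy 2.4.6, pysam 0.24.0 and matplotlib 3.10.9 were used. No test was made, because the members were chosen on the values described. The members and lists were chosen with earlier results of these data known. All 10 members are named, in other lists up to 3 genes of highest lower fold, those with or without a region over a TSS and those without a region, and genes that a member's region overlaps. Genes with regions wider than their length were named after their values were seen. Of the alternatives, 52 were planned and 4, on the principal transcript, were chosen after seeing the data.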

Additional observations from a re-analysis of the deposited data

How the results depend on the processing

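Of 56 values recomputed under other settings, 37 stayed within the spread between the libraries or within 1.5 times the count, and 19 moved. The number of members with a consensus region, 9, was 9 to 10 when either library was left out, the added gene being Dusp2 in replicate 2 alone, and the number with a region over a TSS was 9 in each library and 7 when a summit had to lie within 1 kb of a TSS. Members with a region as wide as the gene, 3, became 6 when peaks up to 500 bp apart were merged and 5 by the principal transcript, and 2 in either library alone. The 51 regions became 25 under merging at 500 bp and 30 in gene bodies only, and the windows held 99 and 159 peaks in single libraries.

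The median ratio of region width to gene length over all 10 members, 0.328, was 0.232 at a −log10 q of at least 5, 1.62 under merging at 500 bp, 0.167 for bases covered in both lists, 0.974 against exonic length and 0.85 against the principal transcript, and 0.164 to 0.256 in single libraries. The median share of the gene body covered, 55.0%, was 30.03% at the stricter q, 84.1% under merging at 500 bp, 26.3% for bases in both lists and 77.1% of the principal transcript, and 32.3% to 51.8% in single libraries, with 32.3% when replicate 1 was left out. The median lower fold, 12.7, was 12.6 without replicate 1 and 16.0 without replicate 2. No paired analysis was possible because no test was run and there was 1 condition.

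The lists give no read depth and the inputs had no file here, so the unequal number of peaks and the differences in fold between the libraries were not set against depth. The origin of the long regions over whole genes was not tested.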
